A study of Mus musculus with 6 samples.

Results

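Chemokines are small secreted proteins that steer cell movement through receptors coupled to G proteins. Cxcl12 is made by stromal cells, acts through Cxcr4 on hematopoietic and neural crest cells, and is bound and removed by the atypical receptor Ackr3. It is known for retaining hematopoietic stem cells in the adult bone marrow. The transcripts described here are 6 genes chosen by symbol, namely the ligands Cxcl12, Cxcl14, Ccl2 and Cx3cl1 and the receptors Cxcr4 and Ackr3. All 6 have 1 probe set each among the 24973 on the array.

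The RNA came from C57Bl/6 mouse embryos, with no allele and no agent named in the labels, at embryonic day 11.5, when hematopoietic stem cells appear around the dorsal aorta. Laser microdissection of frozen sections gave a dorsal piece, cut from the space bounded by the notochord and the top of the vessel, and a ventral piece from below the vessel. Each tissue has 3 arrays, labelled as biological replicates 1 to 3, with both tissues taken from the same embryos per the labels. How many embryos went into 1 array is not given in the labels, and 3 arrays a tissue set how precise the values below can be. The comparison asks whether the ventral side, under study as a stem cell niche, differs from the dorsal side.

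The tissue labels were set beside marker genes, which were named after their values had been seen. The sclerotome genes Pax1 (log2 difference −2.60 ± 0.24, SE; adjusted p = 0.0183) and Col2a1 (−1.75 ± 0.19; 0.0258) were lower in ventral tissue. Of 8 tested sclerotome markers 7 had negative differences and these 2 passed an adjusted p of 0.05, while Foxc2 had a difference of 0.22. Of all 12028 genes tested, 0.208% passed with a lower level in ventral tissue. The visceral mesenchyme gene Tcf21 was higher in ventral tissue (4.70 ± 0.29; 0.00347). Of 8 markers of visceral mesenchyme and coelomic epithelium 7 had positive differences and 3 passed, beside 0.308% of all genes tested with a higher ventral level. Foxf1, a forkhead factor of splanchnic mesenchyme, had a difference of −1.71 ± 0.72 (adjusted p = 0.468). Macrophage markers had a mean level of 4.90 to 5.55 over the 3 dorsal and 5.41 to 5.92 over the 3 ventral arrays, and endothelial markers one of 5.33 to 5.98 and 5.72 to 6.12. In such bulk pieces, fewer cells of a type and less RNA per cell cannot be told apart.

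None of the 6 genes differed between the tissues by the test used. Cxcl12 had nearly the same mean on both sides, Ackr3 and Cx3cl1 had higher means in ventral tissue, and Cxcr4, Cxcl14 and Ccl2 had higher means in dorsal tissue. Of the 5 genes bright enough to be tested, 0 passed an adjusted p of 0.05 in limma. Over all 12028 genes tested, 62 passed, which is 0.515%. At an unadjusted p under 0.05, 1 of the 5 passed (Cxcl14), against 10.7% of all genes tested. The dorsal and the ventral arrays overlapped for each of the 5, while they were apart for 15.4% of all genes tested. With so few genes, these counts are no result beyond the background.

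The promoters of the ligand Cxcl12 and of its receptors Cxcr4 and Ackr3 are shown because these 3 genes form the axis that the values below follow. Each line gives the 150 bases before the RefSeq transcription start (GRCm38.p6), read along the gene. The windows are chr6:117168385-117168534 (plus strand), chr1:128592300-128592449 (minus strand) and chr1:90203830-90203979 (plus strand). Capitals mark the motifs TATAAA and GGGCGG on either strand, and neighbouring or overlapping matches run together.
Cxcl12: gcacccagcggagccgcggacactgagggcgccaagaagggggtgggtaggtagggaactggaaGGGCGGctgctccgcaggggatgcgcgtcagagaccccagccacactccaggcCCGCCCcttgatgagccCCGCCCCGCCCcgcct
Cxcr4: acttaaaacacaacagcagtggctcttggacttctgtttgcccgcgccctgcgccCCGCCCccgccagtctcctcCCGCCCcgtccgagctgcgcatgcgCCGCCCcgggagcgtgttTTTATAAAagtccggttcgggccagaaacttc
Ackr3: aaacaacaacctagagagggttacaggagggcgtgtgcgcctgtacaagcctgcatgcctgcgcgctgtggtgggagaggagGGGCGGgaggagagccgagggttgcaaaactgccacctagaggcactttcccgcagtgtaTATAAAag
The Cxcl12 window held 4 matches to GGGCGG and 0 to TATAAA, with G or C at 72.7% of its bases. The Cxcr4 window held 3 matches to GGGCGG and 2 overlapping matches to TATAAA, 1 on each strand, which lie 25 to 32 bases before the start. The Ackr3 window held 1 match to each, and its TATAAA lies 3 to 8 bases before the start. Of 32851 promoter windows of this length, 28.6% held GGGCGG and 7.57% held TATAAA. The arrays measure transcripts, and no value here bears on binding at these letters.

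Cxcl12 had a log2 level of 9.91, 10.43 and 9.12 on dorsal arrays 1, 2 and 3, and of 9.90, 9.72 and 9.68 on ventral arrays 1, 2 and 3. The ventral arrays lay close together and within the span of the dorsal arrays. Dorsal tissue averaged 9.82 ± 0.66 (SD, n = 3) and ventral tissue 9.77 ± 0.12 (n = 3), a log2 difference of −0.05 ± 0.26 (SE; limma, adjusted p = 0.974). The 95% interval of the difference ran from −0.69 to 0.59. A ventral level more than 1.50-fold above the dorsal one lay outside it, as did a dorsal level more than 1.61-fold above the ventral one. In the fit without a block on replicate number, these bounds were 1.59-fold and 1.70-fold. Same-numbered arrays gave differences of −0.01, −0.70 and 0.56, with no common sign. Without replicate 2 the difference was 0.28 and without dorsal 2 it was 0.25, so its sign rests on that array.

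Cxcr4, the signalling receptor of Cxcl12, had a log2 level of 6.22, 7.05 and 6.38 on dorsal and of 6.56, 6.33 and 5.80 on ventral arrays 1 to 3. Dorsal 2 was the highest and ventral 3 the lowest array, and the tissues overlapped. The means were 6.55 ± 0.44 and 6.23 ± 0.39 (SD, n = 3 each), and the log2 difference was −0.32 ± 0.25 (SE; adjusted p = 0.737), with a 95% interval of −0.93 to 0.29. The ventral array was the higher of the pair in 1 of 3 same-numbered pairs.

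Ackr3, which takes up Cxcl12 without G-protein signalling, had a log2 level of 7.46, 7.04 and 7.87 on dorsal and of 8.12, 7.88 and 7.71 on ventral arrays. Only dorsal 3 reached the ventral range. The means were 7.46 ± 0.41 and 7.90 ± 0.21 (SD, n = 3 each), a log2 difference of 0.45 ± 0.24 (SE; adjusted p = 0.586). Its 95% interval, −0.13 to 1.02, spans no difference and a ventral level 2.03-fold above the dorsal one. The ventral array was the higher in 2 of 3 pairs.

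**Figure D1:**
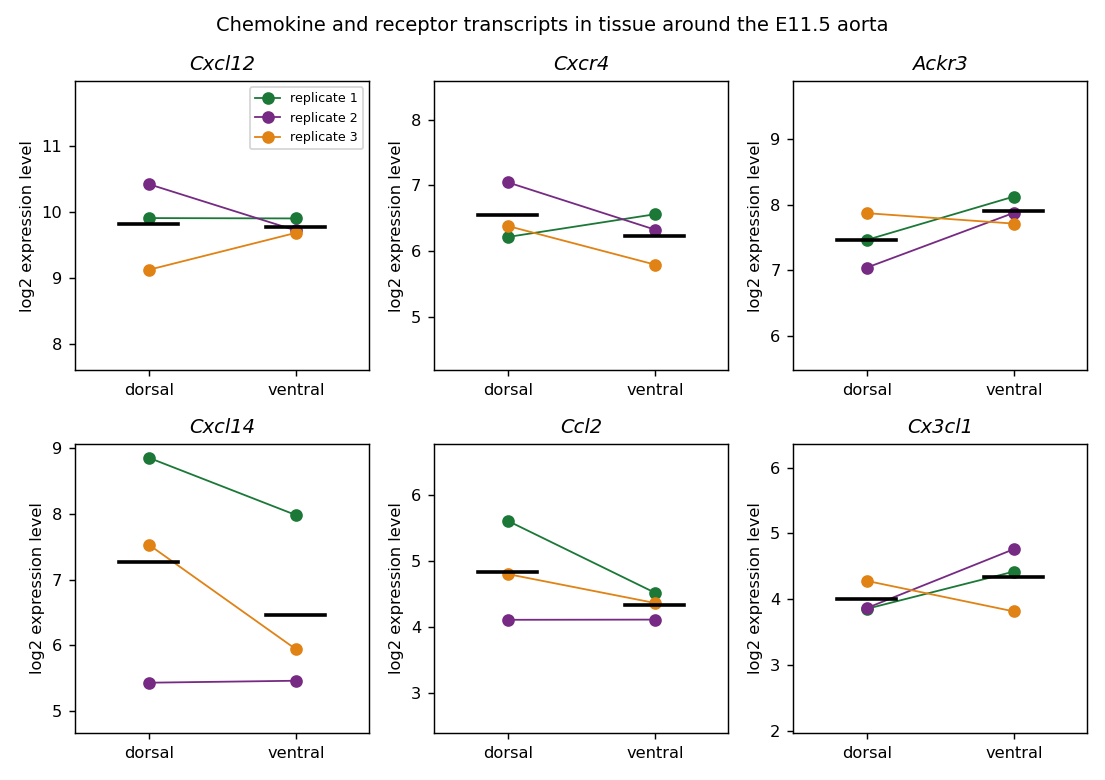
Log2 expression level (vertical axes) of the 6 genes on the 3 dorsal and 3 ventral arrays; points are arrays, lines join arrays with the same replicate number, black bars are means, and each panel spans the same log2 range. The tissues overlap for every gene, Cxcl12 is least spread in ventral tissue, and Cxcl14 spans 5.43 to 8.85.

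Cxcl14, a chemokine produced by epithelia including the epidermis, varied most of the 6. Its log2 level was 8.85, 5.43 and 7.53 on dorsal and 7.98, 5.46 and 5.94 on ventral arrays 1, 2 and 3. Both replicate 1 arrays were high and both replicate 2 arrays were low. The means were 7.27 ± 1.73 in dorsal and 6.46 ± 1.34 in ventral tissue (SD, n = 3 each). The log2 difference was −0.81 ± 0.31 (SE; unadjusted p = 0.0379, adjusted p = 0.432 in limma), with a 95% interval of −1.56 to −0.06. When the block on replicate number was dropped, the standard error was 0.91, the adjusted p 0.851 and the interval −2.91 to 1.28. Of the spread over the 6 arrays, measured as the sum of squares, 84.4% lay between the replicate numbers and 9.37% between the tissues. The median gene tested had 36.4% and 16.2%.

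Ccl2, which attracts monocytes through Ccr2, lay just above the brightness filter of 4.52, with a mean of 4.59 over the 6 arrays. It passed only through dorsal arrays 1 and 3, as its mean was 4.84 in dorsal and 4.33 in ventral tissue. Its log2 level was 5.61, 4.11 and 4.80 on dorsal and 4.52, 4.11 and 4.36 on ventral arrays. Dorsal 1 was the highest, and both replicate 2 arrays were the lowest. The log2 difference was −0.51 ± 0.24 (SE; adjusted p = 0.534), with a 95% interval of −1.10 to 0.08. At such a level the array compresses differences, so that the measured difference gives no exact ratio of transcript.

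Cx3cl1, a membrane-bound chemokine that is shed from endothelium and neurons, fell below the filter with a mean of 4.16 over the 6 arrays. It was read from the fit over all named genes without the filter. Its log2 level was 3.85, 3.86 and 4.28 on dorsal and 4.42, 4.76 and 3.81 on ventral arrays, and ventral 3 lay below all dorsal arrays. The log2 difference was 0.33 ± 0.28 (SE; adjusted p = 0.845), with a 95% interval of −0.39 to 1.05. No difference was detected for this dim transcript, which does not show that there is none.

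**Figure D2:**
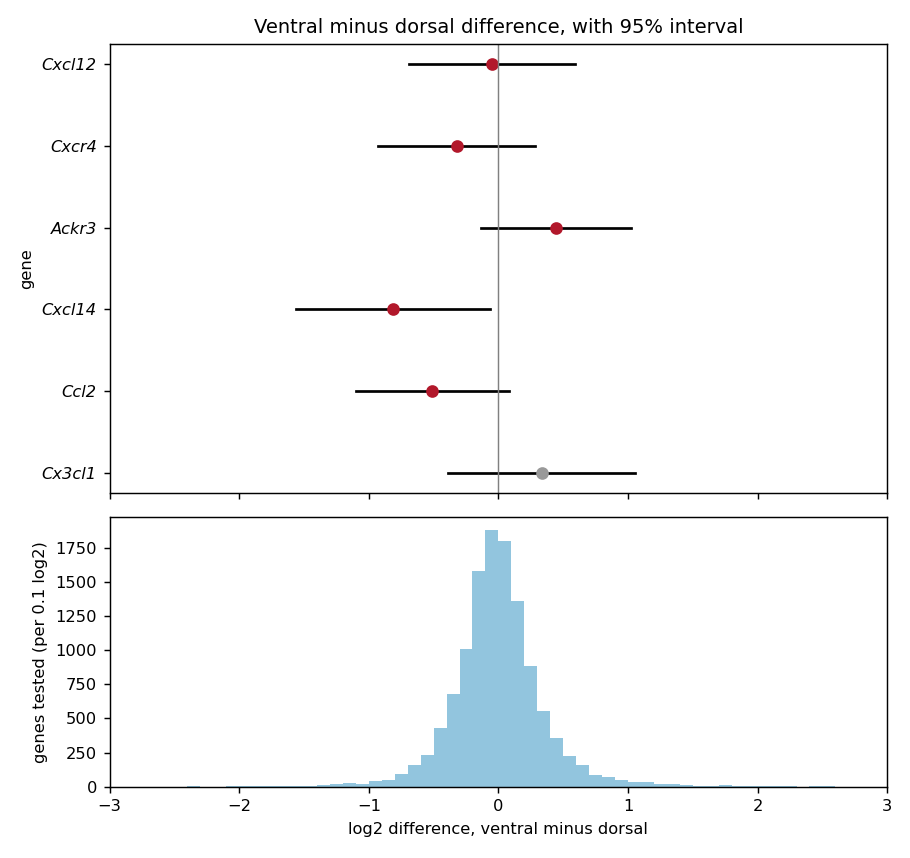
Upper plot, log2 difference (ventral minus dorsal, horizontal axis) of the 6 genes with its 95% interval; red points passed the brightness filter and the grey point (Cx3cl1) did not. Lower plot, the same difference for the 12028 genes tested, counted per 0.1, with 11 genes beyond 3 on either side not drawn. Of the 6 intervals, only that of Cxcl14 leaves out 0 in this fit with the block on replicate number. Without the block it was −2.91 to 1.28.

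Cxcl14 and Ccl2 moved together over the arrays. Their Pearson correlation over the 6 arrays was 0.892, and 0.865 to 0.988 with 1 array left out. It was 0.894 after each tissue was centred on its own mean. Of the 15 pairs among the 6 genes it was the closest, and the next were Ackr3 with Cx3cl1 (0.679) and Cxcl12 with Ackr3 (−0.652). Cxcl12 and Cxcr4 had a correlation of 0.560, which fell to −0.03 with 1 array left out. These values describe 6 arrays that share embryos and normalization, and they are given without a test.

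Some genes of the basal epidermis varied over the arrays in a way like that of Cxcl14 and Ccl2, though not in the same exact order. Krt5, a keratin of the basal layer, had a log2 level of 6.23, 4.44 and 5.78 on dorsal and of 5.33, 3.95 and 4.44 on ventral arrays. Trp63, the transcription factor that defines that layer, had 6.00, 4.42 and 5.38 on dorsal and 4.86, 4.30 and 4.58 on ventral arrays. Both were highest on dorsal 1, and in each tissue the replicate 2 array was the lowest. Krt14 and Krt15, other keratins of the basal layer, did not follow this order on all arrays. In dorsal tissue replicate 2 was the lowest array for both, while in ventral tissue replicate 3 was. Krt15 was highest on dorsal 1, but Krt14 was highest on dorsal 3. A list of 10 epidermal genes, drawn up after the values of these and other epithelial genes had been seen, averaged 5.76, 4.60 and 5.53 on dorsal and 5.13, 4.49 and 5.07 on ventral arrays. The mean of this list correlated by 0.894 with Cxcl14 and by 0.921 with Ccl2 over the 6 arrays. Its members were chosen with these values known, so the correlations and the counts that follow are a description only. Of its 10 genes, 7 had a correlation above 0.5 with Cxcl14, beside 14.4% of all genes tested. The others were the epidermal factor Grhl3 (0.244) and the more widely expressed epithelial genes Cdh1 (0.239) and Dsp (0.253). With Ccl2, 7 were above 0.5, beside 15.3% of all genes tested, and the others were Krt14 (0.492), Cdh1 (0.335) and Dsp (0.128). The mean of the endothelial markers had a correlation of −0.910 with Cxcl14, the most negative among the lists compared. The correlation was weaker for the means of the macrophage (−0.165) and mural (−0.219) markers. Neither piece is labelled as containing epidermis, and the part of these cells in the Cxcl14 and Ccl2 values was not tested.

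**Figure D3:**
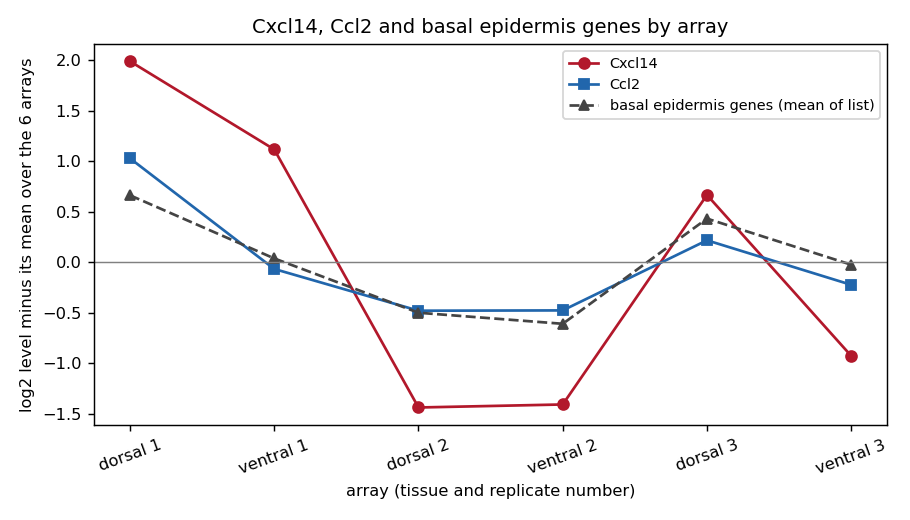
Log2 level of Cxcl14, Ccl2 and the mean of 10 basal epidermis genes on each array, minus its own mean over the 6 arrays (vertical axis), with arrays ordered by replicate number (horizontal axis). All 3 lines are highest on dorsal 1 and lowest on the replicate 2 arrays.

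By the rule of highest Pearson correlation over the 6 arrays among the genes tested, Cxcl12 was most like Tm2d3 (0.998), Hoxd8 (0.994) and Eef1a2 (0.980). Cxcr4 was most like Taldo1 (0.989), Fam98c (0.981) and Ell (0.979), and Ackr3 was most like Ppid (0.997), Zfp523 (0.986) and Ppp6r1 (0.979). Cxcl14 was most like Klhl20 (0.990), Mettl1 (0.980) and Dcp2 (0.979), and Ccl2 was most like Klhl17 (0.993), Trp63 (0.984) and Wnt10a (0.980). The median gene tested had a closest partner at 0.991, so correlations of this size arise for a typical gene on 6 arrays.

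The rest of the chemokine family was mostly dim in this tissue. Of 36 chemokine ligands named on the array 14 passed the filter. Of these, 0 passed an adjusted p of 0.05 (lowest 0.432), beside 0.515% of all genes tested. Of the 14, 7 had positive and 7 negative log2 differences, with a median of −0.01, beside −0.01 over all genes tested. Ccl19, a ligand of Ccr7, had a log2 difference of 0.65 ± 0.27 (SE; adjusted p = 0.468). Ccl9, a ligand of Ccr1, had a level of 4.68, 4.57 and 4.33 on dorsal and of 4.89, 4.88 and 5.60 on ventral arrays, which did not overlap, and a difference of 0.59 ± 0.25 (adjusted p = 0.477). The tissues were apart for this 1 of the 14 tested ligands, beside 15.4% of all genes tested.

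Of 23 receptors named on the array 6 passed the filter, and 0 of these passed the adjusted threshold (lowest 0.586), beside 0.515% of all genes tested. None passed at an unadjusted p under 0.05 either, beside 10.7% of all genes tested. With 6 genes, such counts are no result beyond the background. Cx3cr1, the receptor of Cx3cl1 and a gene of tissue macrophages, had a log2 level of 7.13, 6.99 and 6.63 on dorsal and of 7.26, 6.99 and 7.20 on ventral arrays (difference 0.23 ± 0.19, SE; adjusted p = 0.760). The tissues overlapped for it. All 12 tested macrophage markers had positive differences, with a median of 0.37, and 0 passed, beside 0.515% of all genes tested. Cxcr3, a receptor of interferon-induced chemokines, averaged 4.96 ± 0.04 in dorsal and 5.23 ± 0.10 in ventral tissue (SD, n = 3 each). Its arrays did not overlap, as for this 1 of the 6 receptors beside 15.4% of all genes tested, and the difference was 0.26 ± 0.17 (adjusted p = 0.663). Ccr2, the receptor of Ccl2, was dim on all arrays, with levels from 2.38 to 2.99.

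**Figure D4:**
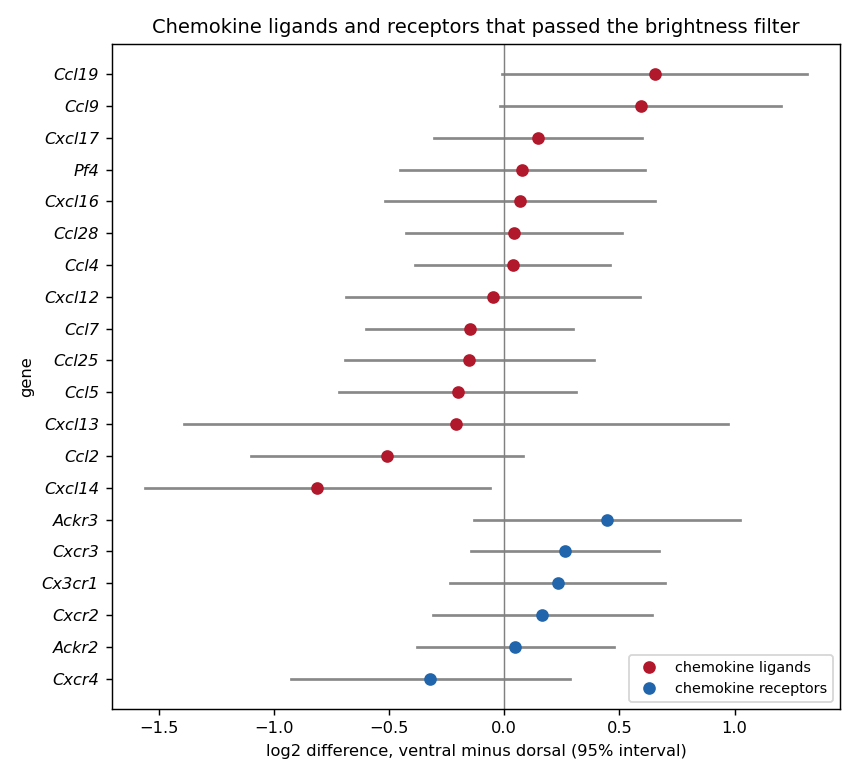
Log2 difference, ventral minus dorsal (horizontal axis), with its 95% interval for the 14 chemokine ligands (red) and 6 receptors (blue) that passed the brightness filter. Points lie from −0.81 (Cxcl14) to 0.65 (Ccl19), and Cxcl14 is the 1 gene whose interval does not include 0 in this fit with the block on replicate number. Without the block its interval was −2.91 to 1.28.

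Among genes whose products cut or replace the ligands, those tested had higher means in ventral tissue, without passing the test. Of 10 such genes 5 were tested, and all 5 had positive log2 differences, with a median of 0.64 beside −0.01 over all genes. The adjusted threshold was passed by 0 of them, beside 0.515% of all genes tested, while 2 had an unadjusted p under 0.05, beside 10.7%. Mmp14, a membrane-anchored metalloproteinase, had a log2 level of 8.28, 8.23 and 8.05 on dorsal and of 9.09, 8.64 and 9.10 on ventral arrays, a difference of 0.76 ± 0.20 (SE; adjusted p = 0.230). Adam10, a sheddase of Cx3cl1, had 7.99, 8.12 and 8.05 on dorsal and 8.41, 8.48 and 9.19 on ventral arrays, a difference of 0.64 ± 0.22 (adjusted p = 0.355). Ventral 3 was the highest array for both. Mmp2, a gelatinase that can cleave Cxcl12, had a difference of 0.65 ± 0.32 (adjusted p = 0.553), and Adam17, the other main sheddase of Cx3cl1, one of 0.19 ± 0.22 (adjusted p = 0.843). Mif, an alternative ligand of Cxcr4, had 12.29, 12.24 and 12.25 on dorsal and 12.54, 12.35 and 12.36 on ventral arrays (0.16 ± 0.17; adjusted p = 0.826). The tissues did not overlap for 3 of the 5 genes, Mmp14, Adam10 and Mif, beside 15.4% of all genes tested. Its partner receptor Cd74 and the peptidase Dpp4, which inactivates Cxcl12, were below the filter.

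Of 15 tested genes of receptor signalling, 8 had positive and 7 negative differences, with a median of 0.00. The adjusted threshold was passed by 0 of them, beside 0.515% of all genes tested. Rac2, a GTPase of blood cells, had a log2 level of 5.79, 5.51 and 5.07 on dorsal and of 6.28, 6.59 and 5.83 on ventral arrays, and a difference of 0.78 ± 0.19 (SE; adjusted p = 0.207). Gnai2, the G-protein subunit through which these receptors commonly signal, had a difference of 0.37 ± 0.18 (adjusted p = 0.538). The tissues were apart for these 2 of the 15 genes, beside 15.4% of all genes tested. Gnai1 (−0.25 ± 0.26) and the signalling regulator Rgs16 (0.23 ± 0.61) overlapped between the tissues. Among 10 genes induced by NF-kB, which also drives Ccl2 and Cx3cl1, 4 were tested and 0 passed, beside the same 0.515%. The adhesion molecule Vcam1 had 6.37, 6.93 and 6.80 on dorsal and 5.48, 4.88 and 5.81 on ventral arrays (−1.31 ± 0.27; adjusted p = 0.132). Nfkbia (−0.18 ± 0.18), Relb (0.14 ± 0.19) and Birc3 (−0.08 ± 0.18) were close to 0.

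A further set of chemokine ligands followed the replicate number, and they were picked out after their values had been seen. Pf4, a platelet chemokine, had a log2 level of 6.07, 6.04 and 8.18 on dorsal and of 5.66, 6.50 and 8.36 on ventral arrays. Replicate 3 was thus higher than the mean of replicates 1 and 2 by 2.12 in dorsal and by 2.28 in ventral tissue. Ppbp, the other platelet chemokine, was higher on replicate 3 by 1.60 and 1.70, although its overall mean lay under the filter. Of their sums of squares, 97.0% and 94.9% lay between the replicate numbers. Of 13 other platelet and megakaryocyte genes, a list drawn up after the values of Pf4 had been seen, 4 passed the filter. Of these 4, 2 (Treml1 and Itgb3) were highest on replicate 3 in both tissues, beside 13.3% of all genes tested. Their excess over replicates 1 and 2, in dorsal and ventral tissue, was 0.24 and 0.27 (Treml1) and 0.37 and 0.34 (Itgb3). Gp6, a collagen receptor of platelets that lay under the filter, was higher on replicate 3 by 0.50 and 1.08, while Vwf was lower by 0.61 and 0.21. Among the other genes under the filter, Gp1bb was lower on replicate 3 by 0.82 and 0.26. Gp5 (−0.08 and 0.64) and Nbeal2 (0.21 and −0.19) changed sign between the tissues, so the list followed no single pattern. The mean of the 14 macrophage markers was lowest on replicate 3 in both tissues, but its members differed. Lyve1, the 1 marker highest on replicate 3 in both, had 4.57, 5.01 and 5.33 on dorsal and 5.45, 5.80 and 6.02 on ventral arrays. Cxcl13, a B-cell attractant, was lowest on replicate 3 in both tissues, with 6.51, 7.66 and 5.91 on dorsal and 7.88, 7.07 and 4.50 on ventral arrays. Whether a replicate number stands for an embryo or for a round of processing cannot be told apart here.

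**Figure D5:**
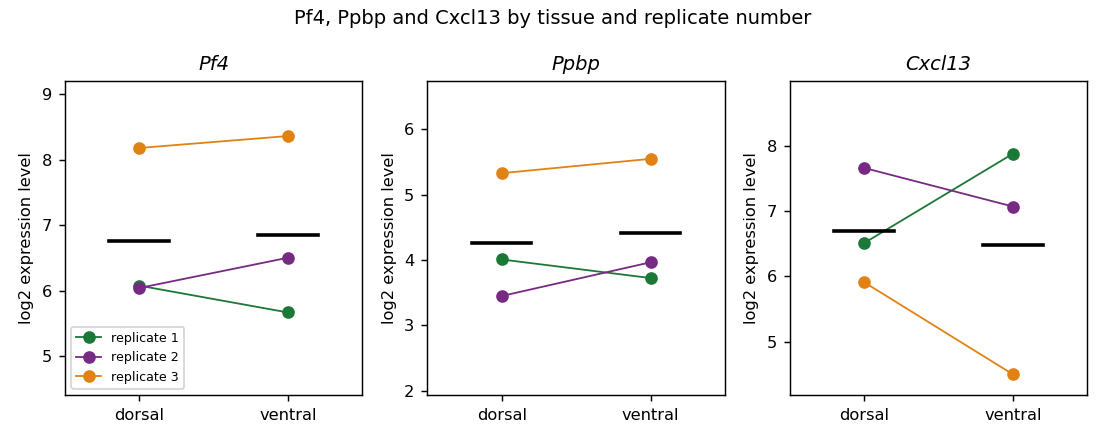
Log2 expression level (vertical axes) of Pf4, Ppbp and Cxcl13 on the 3 dorsal and 3 ventral arrays; points are arrays, lines join arrays with the same replicate number, and black bars are means. Replicate 3 is the highest array of both tissues for Pf4 and Ppbp and the lowest for Cxcl13.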

How the data were processed

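Per the labels' protocols, 200 to 1000 pg of total RNA from 20 μm cryosections was reverse transcribed, amplified with a NuGEN isothermal kit, labelled with biotin and hybridised to Affymetrix arrays. Amplification from so little RNA can distort ratios. The authors deposited log2 expression values, 1 per gene and array, made with Affymetrix Expression Console and RMA per the submitters' processing notes, which implies background correction and quantile normalization. Versions, probe grouping and genome build were not given in the sources used here. Of 24973 probe sets 24015 have a symbol in the platform table, and array medians were 4.49 to 4.55.

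Ventral minus dorsal differences came from limma 3.58.1 under R 4.3.3 (lmFit, eBayes without trend, two-sided), with the replicate number as a block and Benjamini-Hochberg adjustment over the 12028 named genes whose mean reached the median of all probe sets (4.52). All p-values are limma's, and 95% intervals use its moderated standard errors with the degrees of freedom of the fit they come from (6.41 in the fit with the block and the filter). The labels say that both tissues came from the same embryos but not that a number marks an embryo. Deviations from the tissue means correlated by 0.0786, 0.0546 and 0.191 between same-numbered arrays and by −0.136 to 0.0764 between others, which is weak support. Where separate embryos are not given, p-values measure the spread between these arrays.

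Named genes were the 6 members, the called genes and up to 4 with the greatest difference in each pathway list, set partner genes, and the 3 genes closest to each member by correlation. Marker genes, epidermal and platelet genes, Pf4, Ppbp and Cxcl13 were named outside this rule, after their values were seen. Members and lists were chosen with earlier results of these data known. The table named 189 of the 203 list entries, and the others were not analysed here. The fit was tested on simulated data. Alternatives were no block, other filters, other scaling, other variance models and leaving out arrays.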

Additional observations from a re-analysis of the deposited data

How the results depend on the processing

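None of the 6 chemokine and receptor genes passed an adjusted p of 0.05 under any of the 16 alternatives run. Over all genes, 62 passed with the replicate number as a block and 59 without the block, 45 of them shared, and the block changed no call among the 6 genes. The count over all genes was 10 without the brightness filter, 23 with the filter at the 25th percentile and 94 with an intensity trend. It ranged from 12 to 107 when arrays were left out, with 83, 44 and 42 without replicates 1, 2 and 3. Without the block it was 12, 22 and 39 without dorsal 1, 2 and 3, and 107, 12 and 15 without ventral 1, 2 and 3. The difference of Cxcl12 changed sign without replicate 2 (0.28) and without dorsal 2 (0.25), was −0.35 without replicate 3, and ranged from −0.40 to 0.28 over arrays left out. The cause was not tested. The other differences kept their sign. With arrays left out that of Cxcl14 ran from −1.73 (without dorsal 2, no block) to −0.02 (without dorsal 1, no block), that of Cxcr4 from −0.65 to −0.07, that of Ackr3 from 0.24 to 0.75, that of Ccl2 from −0.88 to −0.12 and that of Cx3cl1 from 0.05 to 0.73. No call among the pathway lists was gained under any alternative. Signal close to background limits what can be said of Ccl2 and Cx3cl1.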
